A study of Mus musculus with 4 samples.

Results

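Collagen chain genes were taken as the rows of the deposited count table whose symbol is Col, a number, the letter a and a number, with Col17a1 left out because its product is a transmembrane part of the hemidesmosome. This gave 43 genes of 24907 in the table. They were measured by RNA-seq in ASZ001, a mouse line of basal cell carcinoma, a skin tumour of keratinocyte origin. Cells that carried an empty doxycycline-inducible vector (control, 2 libraries) were compared with cells whose vector encoded the transcription factor c-FOS (2 libraries). Both kinds of cell received doxycycline, at a dose and for a time not given in the sources used here. Cells with the c-FOS vector but without doxycycline were not analysed here, so induction of c-FOS and other differences between the kinds of cell cannot be told apart. Whether libraries of a group were separate cultures is not in the labels, so the p-values rest on a spread that may be technical and describe these samples alone.

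Collagens are extracellular matrix proteins built of chains that wind into a helical trimer. Fibrillar collagens form the banded fibres of connective tissue, collagen IV forms the sheet-like network of basement membranes, and collagen VI forms beaded filaments around cells. In skin, keratinocytes contribute chains of the basement membrane and the anchoring fibrils beneath it, while dermal fibroblasts make most of the fibrillar collagen. FOS is a subunit of AP-1, a dimeric factor whose classical binding site is TGANTCA.

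The 5 highest fold changes were those of 3 collagen VI and 2 collagen V genes. With c-FOS, Col6a1 and Col6a2 were 13.4-fold and 11-fold higher, Col6a3 appeared from 0 control counts, and Col5a1 and Col5a3 were 67.9-fold and 480-fold higher. Col5a2 and Col6a5, chains of the same types, were 3.14-fold and 4.56-fold lower, with at most 39 counts in any library and 9 in any c-FOS library. These 2 had enough counts to be tested in the control libraries only, and Col5a3 and Col6a3 in the c-FOS libraries only. The abundant epithelial chains of collagens IV, VII and XVIII rose by 1.16-fold to 1.39-fold. The size of these small rises depends on the scaling. With libraries scaled by their totals, the log2 fold changes lay between 0.07 (Col18a1, which no longer passed) and 0.34 (Col7a1). Of the 4 tested chains that coat fibrils 3 fell, where 33.3% of all genes tested fell. Col9a3 was 2.13-fold and Col12a1 1.78-fold lower, and the call of Col20a1 was lost in some other fits. The short-chain gene Col8a1 fell too. Collagen I and III chains, the bulk collagens of fibroblasts, stayed at or below 3.91 CPM (counts scaled to a common library size with TMM factors) in every library.

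Promoter sequence is shown for the 5 chain genes with the highest fold changes, because the factor that was introduced binds a short DNA motif. RefSeq windows of GRCm38.p6, a later build than the mm9 of the authors' notes, run from 250 bases before to 50 bases after each start site, and 34 of the 43 genes had one. The 250 bases before the start are printed 5′ to 3′, with any match to TGANTCA in capitals.
They lie at chr10:76726045-76726294 on the minus strand for Col6a1, chr10:76623405-76623654 on the minus strand for Col6a2 (the more downstream of its 2 windows) and chr1:90843972-90844221 on the minus strand for Col6a3.
Those of the collagen V chains lie at chr2:27886175-27886424 on the plus strand for Col5a1 and chr9:20815068-20815317 on the minus strand for Col5a3.
Col6a1: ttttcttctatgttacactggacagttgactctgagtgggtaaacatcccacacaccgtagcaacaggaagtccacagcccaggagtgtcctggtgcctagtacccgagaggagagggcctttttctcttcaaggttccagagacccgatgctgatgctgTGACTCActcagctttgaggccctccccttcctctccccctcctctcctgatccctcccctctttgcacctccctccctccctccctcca
Col6a2: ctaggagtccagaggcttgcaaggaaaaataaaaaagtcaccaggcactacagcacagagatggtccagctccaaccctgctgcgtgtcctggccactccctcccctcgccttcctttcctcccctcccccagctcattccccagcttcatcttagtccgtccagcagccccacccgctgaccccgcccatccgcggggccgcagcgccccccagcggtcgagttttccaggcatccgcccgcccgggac
Col6a3: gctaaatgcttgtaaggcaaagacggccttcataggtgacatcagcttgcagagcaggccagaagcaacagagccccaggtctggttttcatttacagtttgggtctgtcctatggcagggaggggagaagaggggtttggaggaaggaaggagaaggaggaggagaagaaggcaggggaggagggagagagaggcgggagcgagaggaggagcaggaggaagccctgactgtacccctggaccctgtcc
Col5a1: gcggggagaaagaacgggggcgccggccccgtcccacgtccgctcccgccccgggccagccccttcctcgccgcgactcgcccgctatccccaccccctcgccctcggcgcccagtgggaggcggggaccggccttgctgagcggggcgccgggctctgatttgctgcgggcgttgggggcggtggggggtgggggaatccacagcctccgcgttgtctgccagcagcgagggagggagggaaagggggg
Col5a3: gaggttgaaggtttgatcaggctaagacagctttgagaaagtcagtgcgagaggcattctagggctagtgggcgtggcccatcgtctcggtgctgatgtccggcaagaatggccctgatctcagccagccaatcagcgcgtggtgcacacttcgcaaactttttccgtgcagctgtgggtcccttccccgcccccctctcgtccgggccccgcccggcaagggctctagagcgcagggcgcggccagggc

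Among these windows the Col6a1 window held a match, TGACTCA, whose first base lies at position -90 from the start site. No other of the 34 collagen genes with a window had TGANTCA on either strand, so 2.94% of them held it, against 8.97% of all 27025 genes with a window. The motif TGACGTCA, a related site of CREB and ATF dimers, was found in Col24a1 alone (2.03% of all genes). TATAAA was found in Col10a1, Col11a2, Col13a1 and Col3a1, 11.8% of the collagen genes against 15.7% of all genes. A match is a description of letters, and these short windows say nothing of sites farther away. Base composition differed among the windows. The median G and C content was 63.3% in 17 windows of 15 genes that rose and 60.2% in 4 windows of chains that fell. It was 53.7% in 2 windows of chains that did not pass, 56.0% in 14 of chains not tested and 52.7% over all 32851 windows. The Col5a1 window held 34 CpG dinucleotides and 75% G and C, while those of Col6a1 and Col6a3 held 3 CpG each.

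The vector gene served as the check of the labels. Fos was at 0.404 and 0.351 CPM in the control libraries and at 296.8 and 313.4 CPM in the c-FOS libraries, so each library matched its label. The deposited counts summed to between 28405433 and 32465409 per library, and 0 counts in a library allow a level of up to 0.0958 to 0.108 CPM by counting error alone (3 counts). Of 10 listed keratinocyte markers, 7 of 8 tested fell, and their summed level was 21231 and 21440 CPM in control and 10372 and 10710.6 CPM in c-FOS libraries, so the cells held keratinocyte transcripts in both groups. Of 10 fibroblast markers, 3 of 4 tested rose and 1 fell, with a summed level of 15.3 and 13.9 against 131.4 and 132.4 CPM. Those that rose were S100a4 (means of 6.58 and 116.7 CPM), Pdgfra (4.23 and 11.6 CPM) and Pdgfrb (0 counts in control and 2.71 and 2.65 CPM with c-FOS), and Fbln1 fell (3.27 and 0.497 CPM). Of the 6 not tested, Thy1 and Meox1 were at 0 in every library, and Dcn, Lum, Fap and Twist2 stayed at or below 0.591 CPM. No pericyte or smooth muscle marker was tested, and their sum stayed between 0.271 and 0.759 CPM. Of 8 endothelial markers 3 of 4 tested rose and 1 fell (summed 117.5 and 117.1 against 219 and 214.2 CPM). Flt1 (means of 30.9 and 111.3 CPM), Pecam1 (81.3 and 100.6 CPM) and Tek (0.759 and 1.95 CPM) rose, Egfl7 fell (4.11 and 2.60 CPM), and Kdr and Emcn were at 0. Of 8 leukocyte markers 3 of 3 tested rose (summed 18.8 and 17 against 41.4 and 44.9 CPM): Csf1r (means of 0.305 and 18.4 CPM), Cd14 (6.46 and 10.3 CPM) and Cd68 (11.1 and 14.3 CPM). Cd3e was at 0, and Ptprc, Adgre1 and Itgam had at most 2.5 counts in any library. Beside these marker counts, 33.8% of all genes tested rose and 33.3% fell. The part of other cell types in the collagen changes was not tested. In bulk RNA, a change in the share of cells that make a transcript and a change in RNA per cell cannot be told apart.

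Of the 43 collagen genes, 26 had enough counts to be tested. At a Benjamini-Hochberg adjusted p of 0.05 from the quasi-likelihood test of edgeR, 16 rose, 7 fell and 3 did not pass. Of all 12791 genes tested, 67.1% passed, 33.8% as higher and 33.3% as lower. When libraries were scaled by their totals instead of TMM factors, 3217 of all genes rose and 5879 fell, against 4324 and 4265, and the collagen calls were 14 and 8. Of the 26, 9 rose and 3 fell by at least 2-fold, against 7.73% and 7.71% of all genes. Such changes were more frequent at low levels, where the filter leaves out genes that are low in both groups. Below 1 CPM per kilobase of gene length in control, 10 of 15 collagen genes and 45.1% of 1801 genes passed 2-fold. The 2 groups of libraries did not overlap for 25 of the 26, against 83.6% of all genes, and Col4a6 was the 1 that overlapped. The median log2 fold change of the tested collagen genes was 0.45, and that of all genes -0.01. These shares describe the genes that passed the filter. Of them, 20 reached the minimum in both groups, whereas Col1a1, Col5a3, Col6a3 and Col8a2 reached it in the c-FOS libraries only and Col5a2 and Col6a5 in the control libraries only, so those 6 entered through the group where they were higher.

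**Figure D1:**
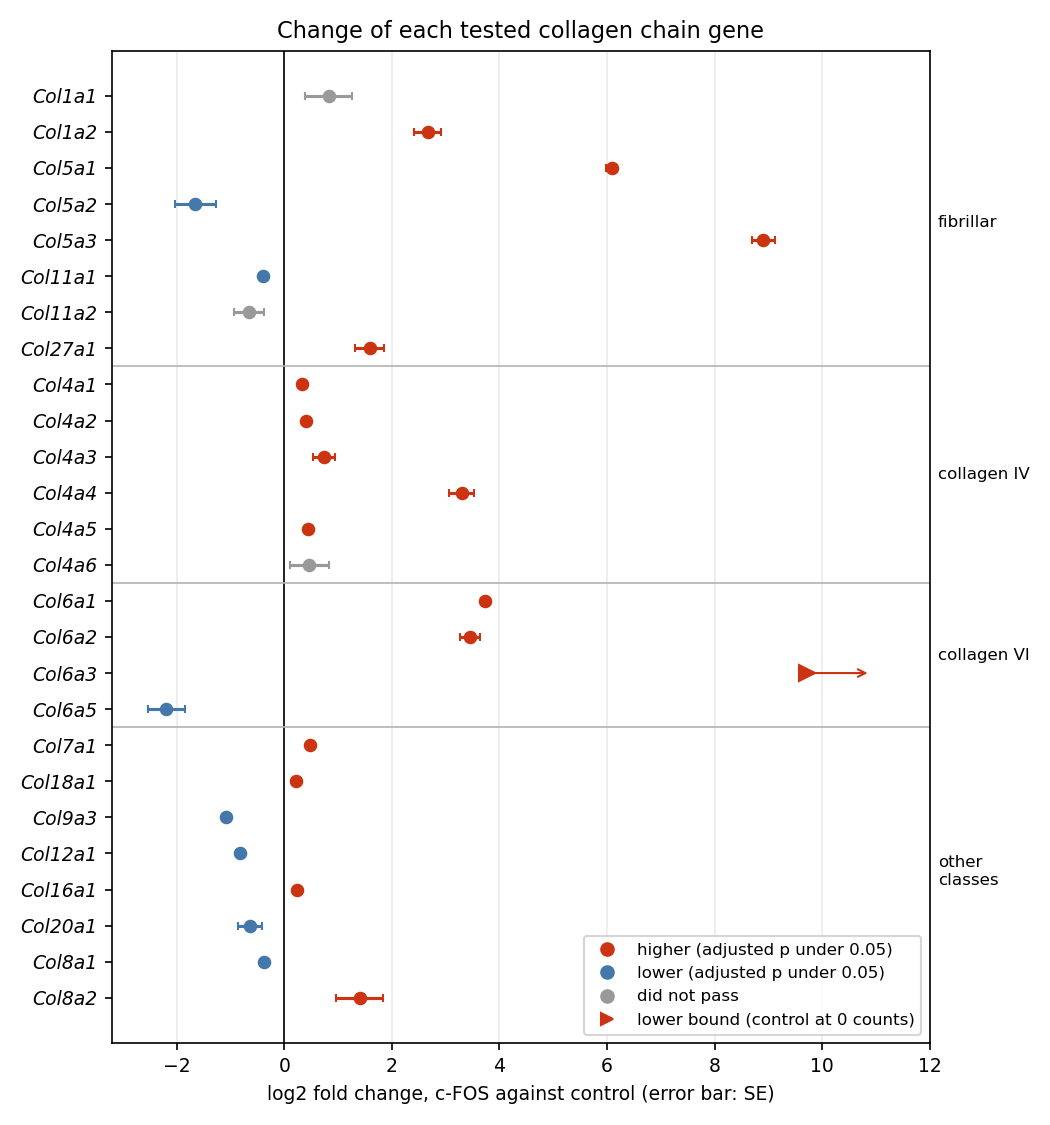
Log2 fold change of c-FOS against control libraries for the 26 tested collagen genes, grouped by class, with error bars of 1 SE from the quasi-likelihood fit. Red marks genes that rose, blue genes that fell and grey genes that did not pass. The triangle of Col6a3 is a lower bound of 9.72 because its control counts were 0. The points farthest to the right are collagen V and VI chains, and collagen IV points other than Col4a4 lie below 1.

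The other 17 genes were near or at 0. Col24a1, Col9a2, Col19a1, Col22a1, Col10a1 and Col13a1 had 0 counts in all 4 libraries, and the rest had at most 7.5 counts in any library. Col3a1, a main fibrillar chain of dermis, had 0 and 1 counts in control and 0 and 1 in c-FOS libraries. Col2a1, the chain of the main cartilage collagen, had between 2 and 4 counts. Col15a1, a basement membrane zone relative of Col18a1, had 0 counts in both control libraries and 6.5 and 7.5 in the c-FOS libraries, and it was too low to be tested.

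Collagen VI assembles from the chains of Col6a1, Col6a2 and Col6a3, and 3 of its 4 tested genes rose and 1 fell (33.8% and 33.3% of all genes). Col6a1 was at 29.5 and 21.7 CPM in control and at 325.9 and 355.8 CPM in c-FOS libraries. Both c-FOS libraries were far above both control libraries, with a log2 fold change of 3.74 ± 0.09 (SE) and adjusted p = 2.42e-13 in edgeR. Col6a2 was at 3.31 and 1.58 CPM in control and at 23.8 and 29.8 CPM in c-FOS libraries. Its log2 fold change of 3.45 ± 0.19 (adjusted p = 1.39e-09 in edgeR) was 4.07 without control replicate 1, which had 98.5 counts, and 3.01 without control replicate 2, which had 49.5. Col6a3, the chain with the long array of von Willebrand factor A domains, had 0 counts in both control libraries and 39.3 and 43.5 CPM with c-FOS. On rounded counts, and with the control group set at 3 counts in all, it was at least 846-fold higher (adjusted p = 3.08e-13 in edgeR).

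Col6a5, whose product is related to the Col6a3 chain, fell from 1.09 and 1.25 CPM to 0.198 and 0.291 CPM, a log2 fold change of -2.19 ± 0.34 (adjusted p = 6.62e-05 in edgeR). Its neighbours Col6a4 and Col6a6 had at most 2.5 counts in any library. The 4 tested collagen VI genes had a median log2 fold change of 3.60, which is set by Col6a1 and Col6a2 and does not depend on the size given to the change of Col6a3. Col6a3 reached the minimum count in c-FOS libraries only and Col6a5 in control libraries only.

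Per length the collagen VI chains were unequal. In RPKM (CPM per kilobase, from the gene lengths in the authors' table), the c-FOS means were 86.5 ± 5.36 for Col6a1, 7.24 ± 1.14 for Col6a2 and 3.84 ± 0.274 for Col6a3 (SD, n = 2). The RPKM ratio of Col6a1 to Col6a2 was 8.37 and 12.9 in control and 12.9 and 11.2 in c-FOS libraries, so the ranges of the groups overlapped. The ratio of Col6a3 to Col6a2 was 0.567 and 0.501 with c-FOS. Col6a1 and Col6a2 lie next to each other on the same strand, and Col6a3 lies on another chromosome.

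Of the 8 tested fibrillar chains, 4 rose and 2 fell (33.8% and 33.3% of all genes), and their median log2 fold change was 1.21. Of these, Col1a1 and Col5a3 reached the minimum count in c-FOS libraries only and Col5a2 in control libraries only. The median thus depends in part on chains that entered through the group where they were higher. Collagen V, which regulates the start and width of fibrils, had chains that moved in opposite directions. Col5a1 was at 1.35 and 2.49 CPM in control and at 133.5 and 129.6 CPM in c-FOS libraries, with a log2 fold change of 6.09 ± 0.11 (adjusted p = 1.18e-14 in edgeR). Col5a3 was at 0.269 and 0.0319 CPM in control and at 66.5 and 79 CPM with c-FOS, with a log2 fold change of 8.91 ± 0.21 (adjusted p = 1.95e-13 in edgeR). The control counts of Col5a3 were 8 and 1, and the log2 fold change was 10.98 without control replicate 1 and 8.06 without control replicate 2. The high values of both genes were thus in both c-FOS libraries, while the size of the Col5a3 change rests on which control library is used.

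Col5a2, the usual partner chain of Col5a1, did not rise with it. It was at 0.689 and 1.10 CPM in control and at 0.288 and 0.291 CPM with c-FOS, a fall by 1.65 ± 0.38 on the log2 scale (adjusted p = 0.00165 in edgeR) that rests on 8 and 9 counts in the c-FOS libraries. The RPKM ratio of Col5a1 to Col5a2 was 1.54 and 1.78 in control and 365.4 and 351 in c-FOS libraries. That of Col5a3 to Col5a1 was 0.276 and 0.0177 in control and 0.687 and 0.841 with c-FOS, so it was nearer to 1 in both c-FOS libraries. The control ratios rest on 8 and 1 counts of Col5a3.

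Collagen XI is the close relative of collagen V in cartilage fibrils, and chains of both types can assemble together. Col11a1 was the most abundant fibrillar chain per length in control, at 27 ± 1.87 RPKM (SD, n = 2), and fell to 20.6 ± 0.0713 RPKM. On the CPM scale it was at 196.2 and 216.3 in control and at 158 and 157.2 in c-FOS libraries, a log2 fold change of -0.39 ± 0.05 (adjusted p = 4.45e-06 in edgeR). The RPKM ratio of Col11a1 to Col5a1 therefore went from 159.2 and 94.8 in control to 1.29 and 1.32 with c-FOS. Its partner Col11a2 had 34.5 and 39.5 counts in control and 16.5 and 28.5 with c-FOS and did not pass (log2 fold change -0.65, adjusted p = 0.0545 in edgeR), but passed in 5 alternatives, among them without c-FOS replicate 2 (adjusted p = 0.0373). Its adjusted p under the alternatives lay between 0.0221 and 0.345. Of 6 cartilage markers 3 were tested, with a summed level of 528.1 and 503.2 CPM in control and 368.7 and 361.1 CPM in c-FOS libraries. Sox9, a transcription factor of cartilage and of hair follicle cells, fell (means of 515.2 and 364.4 CPM), as did Cnmd (0.486 and 0.0592 CPM), and Hapln1 rose from 0 counts to 9.5 and 13 counts. Acan, which encodes the main cartilage proteoglycan, had at most 2 counts, and Matn1 and Matn3 were at 0. The part of these changes in those of Col11a1 and Col9a3 was not tested.

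Collagen I chains were low in every library. Col1a2 rose from 0.471 and 0.607 CPM to 2.98 and 3.91 CPM, a log2 fold change of 2.67 ± 0.25 (adjusted p = 4.05e-07 in edgeR). Col1a1, its partner, was at 0.387 and 0.192 CPM in control and 0.467 and 0.581 CPM in c-FOS libraries and did not pass (log2 fold change 0.83 ± 0.43, adjusted p = 0.107 in edgeR). It passed without control replicate 1, at 1.44 (adjusted p = 0.0209 in edgeR), within a range of 0.0209 to 0.482 over the alternatives. The RPKM ratio of Col1a1 to Col1a2 was 0.722 and 0.278 in control and 0.138 and 0.131 with c-FOS. Col27a1, a fibrillar chain known from cartilage, rose from 15 and 17 counts to 48 and 44.5 counts, a log2 fold change of 1.59 ± 0.27 (adjusted p = 0.000153 in edgeR).

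**Figure D2:**
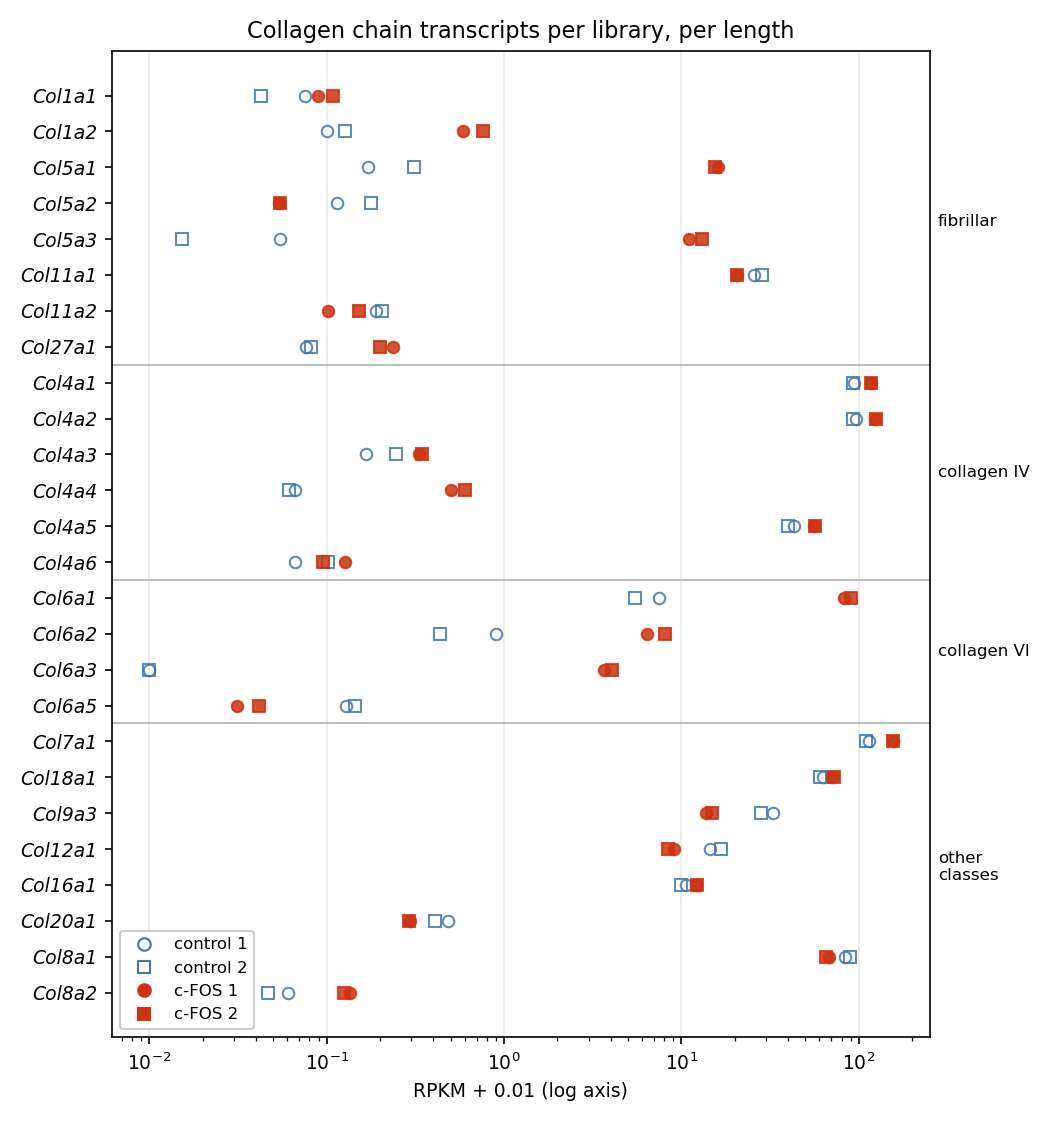
Level of each tested collagen gene in each library as RPKM + 0.01 on a log axis, with open blue symbols for control and filled red symbols for c-FOS libraries, and circles for replicate 1 and squares for replicate 2. Col6a3 in control is drawn at the added 0.01 because its count was 0. Col5a1, Col5a3 and the 3 collagen VI genes that rose are far to the right in c-FOS libraries. The genes above 10 RPKM in control shift by at most 1.09 on the log2 scale, the size of the fall of Col9a3.

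Collagen IV genes are arranged as head-to-head pairs, and all 6 were tested: 5 rose, none fell and Col4a6 did not pass. Of all genes tested 33.8% rose and 33.3% fell, and 6 genes are few to set beside these shares. No collagen IV gene was lower in edgeR at an unadjusted p under 0.05 (0) or in DESeq2 (0). The pair that encodes the common basement membrane chains was abundant and rose slightly. Col4a1 was at 616.4 and 607.6 CPM in control and at 766.5 and 766.2 CPM in c-FOS libraries (log2 fold change 0.32 ± 0.03, adjusted p = 1.63e-06 in edgeR). Col4a2 was at 616.8 and 590.9 CPM in control and at 790.4 and 799.2 CPM with c-FOS (0.40 ± 0.04, adjusted p = 3.56e-07 in edgeR). With library totals the log2 fold changes were smaller, 0.19 for Col4a1 and 0.26 for Col4a2, and both still passed. Per length the pair stayed near parity, with a Col4a1 to Col4a2 ratio of 0.975 and 1.00 in control and 0.946 and 0.935 with c-FOS. The annotated exons of the pair overlap by 22 bases on opposite strands in GENCODE M21, and reads there cannot be assigned without strand.

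The pair Col4a3 and Col4a4, whose chains serve the specialised basement membranes of kidney and lung, was low and changed unequally. Col4a4 rose from 0.437 and 0.399 CPM to 3.81 and 4.60 CPM, a log2 fold change of 3.30 ± 0.24 (adjusted p = 2.55e-08 in edgeR). Col4a3 was at 1.35 and 2.01 CPM in control and at 2.77 and 2.87 CPM in c-FOS libraries, a log2 fold change of 0.74 ± 0.21 (adjusted p = 0.00624 in edgeR). That call was lost in DESeq2 (adjusted p = 0.0547), within a range of 0.000515 to 0.0547 over the alternatives, and the log2 fold change was 0.49 without control replicate 1. The RPKM ratio of Col4a3 to Col4a4 was 2.79 and 4.57 in control and 0.659 and 0.566 with c-FOS, so the order of the pair was opposite in the groups. The difference between their fold changes was not tested.

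The X-linked pair Col4a5 and Col4a6 was unequal in both groups. Col4a5, which keratinocytes express, rose from 277.4 and 256.9 CPM to 359 and 366.1 CPM (log2 fold change 0.44 ± 0.04, adjusted p = 4.25e-07 in edgeR). With library totals its log2 fold change was 0.30 and still passed. Col4a6 had 11 and 19 counts in control and 21.5 and 17.5 counts in c-FOS libraries, with overlapping groups and an adjusted p of 0.268 in edgeR. Relative to Col4a1, Col4a5 stood at an RPKM ratio of 0.459 and 0.431 in control and 0.477 and 0.487 with c-FOS.

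**Figure D3:**
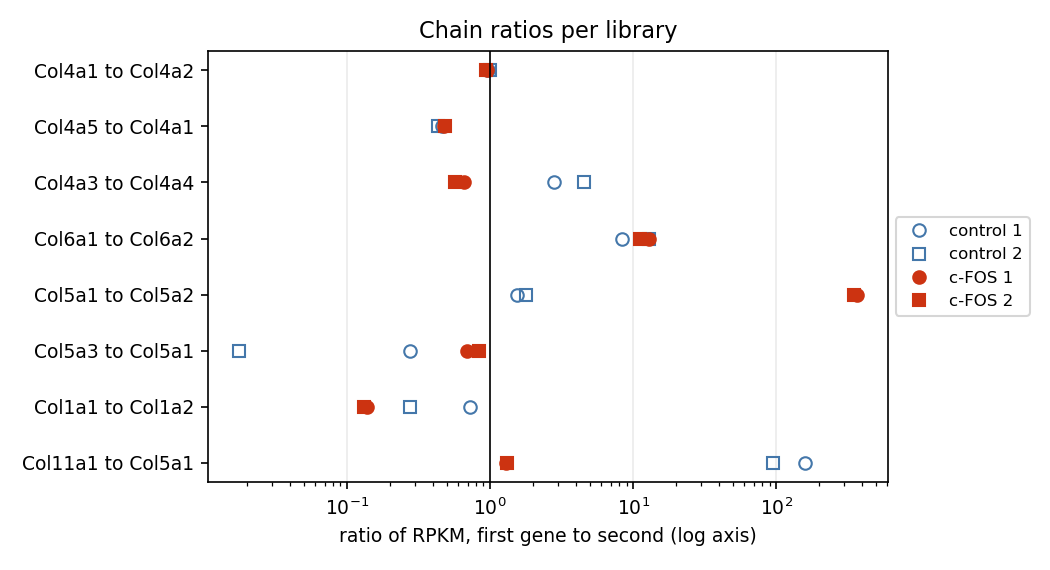
Ratio of the RPKM of 2 collagen chain genes in each library on a log axis, with open blue symbols for control, filled red symbols for c-FOS, circles for replicate 1 and squares for replicate 2. The ratio of Col4a1 to Col4a2 stays near 1 in all 4 libraries. The ratio of Col5a1 to Col5a2 lies above 350 with c-FOS and below 2 in control, and those of Col4a3 to Col4a4 and Col11a1 to Col5a1 are lower with c-FOS.

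Of the 8 tested genes in other classes, 4 rose and 4 fell (33.8% and 33.3% of all genes), with a median log2 fold change of -0.08. Among them, Col8a2 reached the minimum count in c-FOS libraries only. Col7a1, the chain of the anchoring fibrils that tie the epidermal basement membrane to the dermis, was the most abundant per length of the 43 genes in both groups (Col17a1, not among them, was higher, at means of 1142.9 and 586.3 RPKM). It was at 1031 and 998 CPM in control and at 1408 and 1407 CPM with c-FOS, a log2 fold change of 0.47 ± 0.04 (adjusted p = 4.67e-08 in edgeR). With library totals its log2 fold change was 0.34 and still passed. Col18a1, the basement membrane collagen from which endostatin is released, was at 350 and 336.9 CPM in control and at 392 and 402.4 CPM with c-FOS. Its log2 fold change of 0.21 ± 0.04 (adjusted p = 0.000194 in edgeR) was 0.07 and did not pass with library totals as the scaling (adjusted p = 0.092, the highest over the alternatives, of which the lowest was 3.44e-07).

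Fibril-associated collagens, which coat fibrils and link them to other matrix, had 1 of 4 tested genes that rose and 3 that fell. Over all genes tested, 33.8% rose and 33.3% fell. Col9a3, a chain of the fibril-coating collagen IX of cartilage, fell from 92.4 and 79.4 CPM to 38.8 and 41.7 CPM (log2 fold change -1.09 ± 0.07, adjusted p = 4.39e-09 in edgeR). It was the 1 collagen IX gene tested, since Col9a1 and Col9a2 had at most 0.5 counts in any library. The annotated exons of Col9a3 overlap those of Tcfl5 by 234 bases on the opposite strand, and Tcfl5 had at most 1 count. Col12a1, which binds the surface of collagen I fibrils, fell from 168.9 and 194.5 CPM to 106.4 and 98 CPM (-0.83 ± 0.06, adjusted p = 2.53e-08 in edgeR).

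Col16a1, a fibril-associated chain found near basement membranes, was at 54.7 and 51 CPM in control and at 61.9 and 63.1 CPM with c-FOS (log2 fold change 0.24 ± 0.05, adjusted p = 0.000677 in edgeR). With library totals it did not pass (0.10, adjusted p = 0.0747, the highest over the alternatives, of which the lowest was 1.3e-05). Col20a1 was low, with 58.5 and 51.5 counts in control and 33 and 36 with c-FOS (-0.63 ± 0.22, adjusted p = 0.0225 in edgeR). The call was lost in DESeq2 (adjusted p = 0.193) and without control replicate 1 (0.104), c-FOS replicate 1 (0.0819) or c-FOS replicate 2 (0.107), and its lowest adjusted p over the alternatives was 0.00706.

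Collagen VIII forms hexagonal lattices beneath endothelia from the chains of Col8a1 and Col8a2. Col8a1 was abundant and fell from 424.1 and 453.8 CPM to 346.2 and 332.4 CPM (log2 fold change -0.37 ± 0.04, adjusted p = 2.31e-06 in edgeR). Col8a2 was at 6.5 and 5 counts in control and at 15 and 15.5 counts with c-FOS (1.40 ± 0.44, adjusted p = 0.0115 in edgeR). The call was lost in DESeq2 (adjusted p = 0.149), without control replicate 2 (0.0543) and without c-FOS replicate 1 (0.0549), and its lowest adjusted p over the alternatives was 0.00812.

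Col6a1, Col5a1 and Col5a3 moved up the order of the levels per length. In control libraries the mean RPKM was highest for Col7a1 (111.8), Col4a2 (94.3), Col4a1 (93.3), Col8a1 (86) and Col18a1 (61.5), and Col6a1 stood in place 11. The control values of Col4a1 and Col4a2 overlapped, between 92.3 and 96.4 RPKM, and those of Col8a1 were 83.1 and 88.9 RPKM. In c-FOS libraries the order was Col7a1 (155.1), Col4a2 (124.2), Col4a1 (116.8), Col6a1 (86.5), Col18a1 (71.1) and Col8a1 (66.5). Col5a1 and Col5a3, at 0.230 and 0.0249 RPKM in control, stood in places 9 and 12 with c-FOS, at 15.8 and 12 RPKM.

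The summed level of the 43 genes was 586.6 and 575 RPKM in control and 767.2 and 780.7 RPKM in c-FOS libraries, a rise of the mean by 193.2 RPKM. Col17a1, left out of the 43, fell from a mean of 1142.9 to 586.3 RPKM (log2 fold change -0.96, adjusted p = 6.98e-11 in edgeR). That fall was larger than the rise, so the direction of the sum rests on leaving Col17a1 out. Of the difference in the sum of the 43 genes, collagen VI accounted for 90.4 RPKM, collagen IV for 68.8 and Col7a1 for 43.3. Fibrillar chains added 21.8 and the class of Col15a1 and Col18a1 9.68, while fibril-associated chains differed by -21.3 and short-chain networks by -19.5 RPKM. The order depends on the unit. In summed CPM, collagen IV went from 1513 and 1458 to 1923 and 1940. Col7a1 went from 1031 and 998 to 1408 and 1407 CPM. Collagen VI went from 34.0 and 24.5 to 389.3 and 429.4 CPM, a smaller rise of the mean than those of collagen IV and Col7a1. The share of collagen VI in the sum was 1.45% and 1.06% in control and 12.1% and 13.1% with c-FOS. Most of it was Col6a1, at 1.28% and 0.956% in control and 10.8% and 11.6% with c-FOS. Collagen IV held 39.8% and 39.2% in control and 38.7% and 38.4% with c-FOS, and fibrillar chains 4.50% and 5.09% against 6.35% and 6.47%. Fibrillar chains thus remained a small share in all 4 libraries, even with the rise of Col5a1 and Col5a3.

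**Figure D4:**
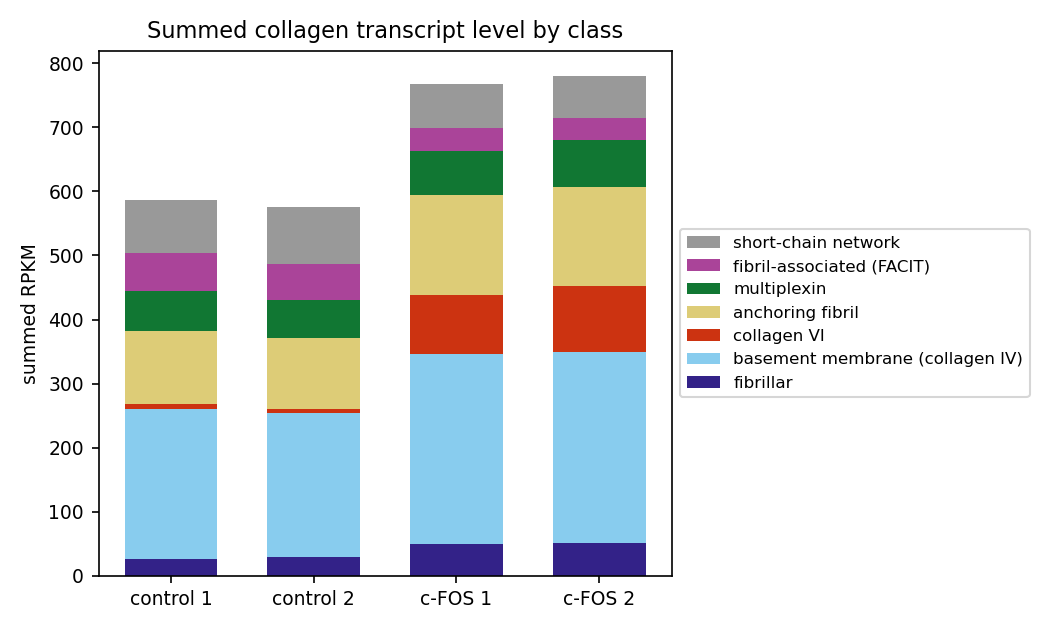
Summed RPKM of the collagen genes, without Col17a1, in each library, stacked by class from fibrillar at the bottom to short-chain networks at the top. The collagen VI segment is thin in the control libraries (1.45% and 1.06% of the sum) and thick in the c-FOS libraries (12.1% and 13.1%). Transmembrane and unclassified chains are not drawn because their sums were close to 0.

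The 10 collagen genes at 10 RPKM or more in control had a median absolute log2 fold change of 0.39 and a largest one of 1.09, and 1 of them passed 2-fold. The 6679 genes of the whole table at that level had a median of 0.25, and 7.16% passed 2-fold. Col6a1, next below the 10 collagen genes at 6.50 RPKM in control, had a log2 fold change of 3.74. The 15 collagen genes under 1 RPKM in control had a median absolute log2 fold change of 1.65, and 66.7% passed 2-fold. For the 1801 genes of the whole table at that level the median was 0.89, and 45.1% passed 2-fold. A gene with too few control counts passes the filter only if it is higher with c-FOS, so large changes at this level are in part built in. Col1a1, Col5a3, Col6a3 and Col8a2 entered that way, and Col5a2 and Col6a5 through the control libraries only. The shares under 1 RPKM are thus a description.

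Genes that make, process, bind and degrade collagen were read from lists of known pathway members. The shares to set beside the counts of each list are those over all 12791 genes tested, of which 33.8% rose and 33.3% fell. Of 23 genes for the folding, modification and secretion of collagen chains, 19 were tested, 11 rose, none fell and 8 did not pass (median log2 fold change 0.24). With library totals 3 of them fell, while with TMM factors 0 were lower at an unadjusted p under 0.05 in edgeR and 0 in DESeq2. The lysyl hydroxylase gene Plod2 rose from 7.23 and 7.58 CPM to 30.1 and 29.8 CPM (2.01 on the log2 scale). Fkbp14, a prolyl isomerase of the endoplasmic reticulum, rose by 1.76 and the prolyl hydroxylase gene P3h1 by 1.72. Serpinh1, which encodes the collagen chaperone HSP47 and was named after its value was seen, was at 314.5 ± 1.18 CPM in control and 310.7 ± 4.82 CPM with c-FOS and did not pass (SD, n = 2; log2 fold change -0.02, adjusted p = 0.68 in edgeR).

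Of 16 genes for procollagen processing and crosslinking, 9 were tested, 6 rose, 1 fell and 2 did not pass (median 0.40). Pcolce2, an enhancer of the procollagen C-proteinase, rose from 23.4 and 25.9 CPM to 234.5 and 237.2 CPM (log2 fold change 3.26). Tll1, a proteinase of that family, rose from 0.118 and 0.0639 CPM to 4.03 and 4.76 CPM (5.43). Its control values rest on 3.5 and 2 counts, and the log2 fold change was 6.02 without control replicate 1 and 4.99 without control replicate 2. Lox, the lysyl oxidase that crosslinks fibrils, had 3 rounded counts in control and 41 with c-FOS, a ratio of 14.2 with an exact 95% counting interval of 4.53 to 71.6. Its relative Loxl4 fell by 0.13 on the log2 scale, a call lost in edgeR without c-FOS replicate 1 (adjusted p = 0.0506) or c-FOS replicate 2 (0.174).

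Of 15 collagen receptor genes, 10 were tested, 4 rose, 5 fell and 1 did not pass (median -0.29). Over all genes tested, 33.8% rose and 33.3% fell, so with 10 genes these counts say little of receptors in particular. Antxr2, a receptor for collagen VI and basement membrane ligands, rose from 31.9 and 33.5 CPM to 118.2 and 120.7 CPM (log2 fold change 1.87). Its relative Antxr1 was named after its value was seen and fell from 587.4 and 561.4 CPM to 315.9 and 318.8 CPM (-0.86). Itgb1, the beta chain of the collagen-binding integrins, rose by 1.44, and Itga1, an alpha chain that pairs with it, fell by 1.25. The collagen endocytic receptor gene Mrc2 fell by 1.31 and the adhesion receptor gene Adgrg6, a collagen IV receptor, fell by 0.96. Ddr1, a collagen-activated kinase, passed at 0.12 but was at -0.013 with library totals and lost its call in 4 other settings, those without control replicate 2 or either c-FOS replicate and with upper-quartile factors. The number of receptors that rose was 2 with library totals.

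Of 12 genes for collagen degradation, 5 were tested, 4 rose, none fell and 1 did not pass (median 0.37). With library totals 1 fell, while 0 were lower at an unadjusted p under 0.05 in edgeR and 0 in DESeq2. The collagenase gene Mmp13 rose from 0.824 and 0.734 CPM to 111.4 and 126.6 CPM (log2 fold change 7.24), the membrane collagenase gene Mmp14 rose by 0.72 and the prolidase gene Pepd by 0.37. Of 15 collagen-binding matrix partners, 12 were tested, 8 rose, 2 fell and 2 did not pass (median 1.22). Postn, which encodes periostin, rose from 0.958 and 0.575 CPM to 12.4 and 11.4 CPM (3.94). Fn1, which encodes fibronectin, rose by 3.52, and Tnxb, which encodes a tenascin, had 3 rounded counts in control and a ratio of 13.5 with an exact 95% counting interval of 4.29 to 68.3. Prelp, a leucine-rich proteoglycan, fell by 2.23. Vwa1, which encodes a perlecan- and collagen VI-binding protein of the pericellular matrix, fell from 124.6 and 126.4 CPM to 63.4 and 63.5 CPM.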

How the data were processed

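RNA-seq was made from 4 libraries of ASZ001 cells, 2 control and 2 c-FOS, grouped by title. TopHat and HOMER are named in the series design text. The submitters' processing notes list build mm9 and DESeq2. For the annotation and strand setting, the sources used here give nothing. The values the authors deposited are expected counts in steps of 0.5, unnormalized, with a gene length in bases per row. Of 24909 rows, 2 symbols were duplicated, and the higher row was kept.

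Counts were rounded (0.5 upward) and tested with edgeR 4.0.16 (R 4.3.3): TMM factors, filterByExpr (minimum count 10, total 15) and the two-sided quasi-likelihood test with no covariate, adjusted by Benjamini-Hochberg over 12791 genes. CPM use effective library sizes, RPKM divide CPM by length, and SE derive from the F statistic. Replicates differed by more than sampling noise (chi-square per degree of freedom 4.98 in control and 1.97 in c-FOS). The fit was also run on simulated data, of which no result is given here. The members and lists were chosen with earlier results of these data known. Every tested collagen gene is named, and of each list of other genes up to 3 called genes in each direction. DESeq2 1.42.0 was an alternative, among other scalings, filters, rounding, left-out libraries and a replicate block. Protein sequence features were not analysed here.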

Additional observations from a re-analysis of the deposited data

How the results depend on the processing

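The 26 tested collagen genes were refitted under 14 alternatives, which gave 346 values. None changed sign, 330 kept their side of the threshold, 10 no longer passed and 6 newly passed. The count of collagen genes that rose ran from 15 to 17 and that of genes that fell from 6 to 7 when each library was left out in turn, where the lone library of a group is assumed to vary like the other group. The median log2 fold change of the tested collagen genes ran from 0.38 to 0.46 in those fits. It was 0.32 with library totals, which put the median of all genes at -0.14. A mean of at least 100 counts, chosen after seeing the data, left 4 collagen genes that fell and 11 that rose, because fewer genes were tested. With a minimum count of 50, the counts were 14 and 5. DESeq2 called 14 that rose and 6 that fell. Rounding 0.5 to even, also chosen after seeing the data, added Col11a2 to the genes that fell (adjusted p = 0.0476 in edgeR). Ddr1 was at -0.013 with library totals.

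Same-numbered libraries did not deviate together (correlation -0.08), so the replicate numbers were not taken as pairs. With the replicate number as a block, 16 collagen genes rose and 7 fell, as without it, the median was 0.46, and 4246 and 4218 of all genes rose and fell.

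Shares of summed CPM in place of RPKM were 5.19% and 5.83% in control and 7.24% and 7.33% in c-FOS libraries for fibrillar chains, 39.1% and 38.2% against 38.2% and 38.1% for collagen IV, 0.877% and 0.641% against 7.74% and 8.44% for collagen VI, and 54.9% and 55.4% against 46.8% and 46.1% for the other classes. Depth limits the genes with few counts, such as Col8a2 and Col20a1, and with 2 libraries a group an exact permutation test of a single value cannot go below p = 0.3333.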
